A study of Homo sapiens with 12 samples.

Results

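The genes described are 9 that build the MHC class I antigen presentation pathway: the heavy chains HLA-B, HLA-C, HLA-E and HLA-F, their partner B2M, the peptide transporters TAP1 and TAP2, the loading factor TAPBP, and the immunoproteasome subunit PSMB9. They were found by name, as the array probes whose single gene symbol is one of these, a rule that uses no measured value. The 9 genes have 16 of the array's 47231 probes. Of the 16 probes, 6 were detected on all 12 arrays, 11 on at least 2 arrays and 4 on none. A gene was tested if 1 of its probes was detected (detection p below 0.01) on at least 2 arrays, which kept 8 of the 9 members among 11458 genes tested; PSMB9 was the member left out.

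Class I molecules show short peptides from inside the cell to CD8+ T cells and natural killer cells. The proteasome, or its interferon-inducible form that contains PSMB9, cuts proteins into peptides, the TAP1 and TAP2 heterodimer pumps them into the endoplasmic reticulum, and TAPBP (tapasin) holds an empty heavy chain and B2M at the transporter until a peptide is bound. Interferons and NF-kB are known to raise transcription of most of these genes, and most nucleated cells, gut epithelium included, make them at a basal level. HLA-B and HLA-C are polymorphic classical heavy chains, whereas HLA-E and HLA-F are nonclassical ones that vary little between people.

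RNA was measured on 12 Illumina bead arrays of Caco-2 cells, which come from a human colorectal adenocarcinoma and serve as a model of gut epithelium, in 5 groups of biological replicates. In the plasmid experiment cells received pCMV-ENTRY Sirt1, which encodes the protein deacetylase SIRT1 (OE Sirt1, n = 3), or the negative control plasmid pCMV-Neo (OE control, n = 3). In the siRNA experiment they received 1 of a pair of non-overlapping SIRT1 siRNAs (KD1, n = 2, and KD2, n = 2) or a scrambled siRNA of low GC content (siRNA control, n = 2), and were lysed 72 h later. The KD2 arrays are numbered 2 and 3, and the others from 1. All groups are the same transfected cell line, and the protocols state no lysis time for the plasmid arrays.

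The arrays each detected 15345 to 17981 probes (32.5% to 38.1%), raw median intensities ran from 108.6 to 152.7, and Pearson's r between arrays over genes ran from 0.961 to 0.992. The SIRT1 probe read 8.53 to 8.98 (log2 level) in the OE control arrays, 8.62 to 8.80 in the arrays labelled OE Sirt1, 8.58 and 8.88 in the siRNA control, 7.33 and 7.35 in KD1 and 7.18 and 7.87 in KD2. It fell in KD1 by 1.39 on the log2 scale (SE 0.22, adjusted p = 0.0472 by limma), and was at -1.21 in KD2 (SE 0.22, adjusted p = 0.0507), just outside the threshold of 0.05 used throughout. In the arrays labelled OE Sirt1 the difference from vector was 0.00 (SE 0.18, 95% interval -0.40 to 0.40, adjusted p = 1.00). Whether this probe can read the plasmid's transcript was not tested, and the OE Sirt1 label is used below as a label. KD1 replicate 1 stood apart within the siRNA experiment: its hypoxia response score, the mean centred log2 level of the 20 tested genes of that list, was 0.00, against 0.53 to 1.15 in the other siRNA arrays and -0.80 to -0.59 in the plasmid arrays. Of the 9 Caco-2 epithelial markers with a probe, 8 were detected on every array, and KRT20 was not detected in the plasmid arrays. Of the 9 leukocyte markers with a probe, CD14, CD68, LYZ and LCP1 were detected on all 12 arrays and PTPRC, CD3E and MS4A1 on none. Of the 9 fibroblast markers, 6 were detected on every array of each group.

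The promoters of the pathway are shown because 5 of the 8 members with a RefSeq promoter entry hold an interferon-stimulated response element core in the 250 bases before their start. The windows are from RefSeq's GRCh38.p14 table and read 5′ to 3′ on the strand of the gene, with matches to the searched motifs in capitals. The motifs were the interferon-stimulated response element core (GAAANNGAAA), the gamma-activated site core (TTCNNNGAA), the NF-kB core (GGGANNNNCC) and the CRE core (TGACGT), each searched on both strands. HLA-B (chr6:31357180-31357429, minus strand) carries in capitals overlapping NF-kB core matches on both strands. HLA-F (chr6:29723184-29723433, plus strand) carries 1 interferon element core on the opposite strand. B2M (chr15:44711267-44711516, plus strand) carries overlapping interferon element cores followed by NF-kB core matches. The outer of 2 TAP1 windows (chr6:32853705-32853954, minus strand) carries overlapping interferon element cores on the opposite strand and an NF-kB core on either side of them. TAP2 (chr6:32838740-32838989, minus strand) carries 1 interferon element core, and TAPBP (chr6:33314079-33314328, minus strand) carries an NF-kB core and, next to its start, overlapping interferon element cores.
HLA-B: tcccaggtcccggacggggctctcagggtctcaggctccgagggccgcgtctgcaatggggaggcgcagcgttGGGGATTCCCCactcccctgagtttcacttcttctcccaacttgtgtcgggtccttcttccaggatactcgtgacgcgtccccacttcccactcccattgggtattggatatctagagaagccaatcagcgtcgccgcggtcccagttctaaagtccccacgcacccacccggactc
HLA-F: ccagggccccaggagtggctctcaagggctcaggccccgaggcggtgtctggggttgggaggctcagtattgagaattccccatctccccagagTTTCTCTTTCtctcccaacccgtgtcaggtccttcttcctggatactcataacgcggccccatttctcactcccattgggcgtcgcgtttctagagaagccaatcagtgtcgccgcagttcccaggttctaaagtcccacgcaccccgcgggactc
B2M: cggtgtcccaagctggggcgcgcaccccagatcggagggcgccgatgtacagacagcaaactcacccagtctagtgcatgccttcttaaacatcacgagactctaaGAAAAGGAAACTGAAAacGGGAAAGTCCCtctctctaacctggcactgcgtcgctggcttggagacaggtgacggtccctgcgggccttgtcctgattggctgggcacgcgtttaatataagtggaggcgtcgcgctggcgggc
TAP1, outer window: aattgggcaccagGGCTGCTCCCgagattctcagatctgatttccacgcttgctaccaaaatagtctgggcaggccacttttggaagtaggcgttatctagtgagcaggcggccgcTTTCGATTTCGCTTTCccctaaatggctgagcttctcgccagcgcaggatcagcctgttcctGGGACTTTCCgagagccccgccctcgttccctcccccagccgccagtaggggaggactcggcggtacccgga
TAP2: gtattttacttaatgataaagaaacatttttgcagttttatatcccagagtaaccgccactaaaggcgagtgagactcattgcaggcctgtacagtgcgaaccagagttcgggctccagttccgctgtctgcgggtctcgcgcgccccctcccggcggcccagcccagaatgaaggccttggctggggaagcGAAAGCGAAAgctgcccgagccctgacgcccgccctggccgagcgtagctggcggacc
TAPBP: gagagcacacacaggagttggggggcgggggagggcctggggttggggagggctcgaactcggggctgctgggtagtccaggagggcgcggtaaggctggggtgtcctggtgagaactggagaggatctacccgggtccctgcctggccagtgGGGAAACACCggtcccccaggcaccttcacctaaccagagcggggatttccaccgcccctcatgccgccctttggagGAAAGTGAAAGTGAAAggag

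An interferon element core was found in 3.02% of the 35116 promoter windows of the same length in the table, and in 22 of the 28 genes of a type I interferon response list that have an entry. Counts of genes take a match in any window of the gene (the 8 members have 9 windows), while the shares are of single windows. An NF-kB core stood in the windows of 5 members (HLA-B, HLA-C, B2M, TAP1 and TAPBP) and in 22.6% of all windows. A gamma-activated site core was found in 1 member, in the inner window of TAP1 (chr6:32852762-32853011, minus strand), and in 6.57% of all windows. The CRE core was found in none of the 8 members and in 7.10% of all windows. The PSMB9 window (chr6:32853942-32854191, plus strand) held no match to any of the 4 motifs and overlaps the far end of the outer TAP1 window, the genes being read in opposite directions. A match describes these letters and is not a measured binding site. The genes lie in the MHC region of chromosome 6, except B2M on chromosome 15.

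The members lay at very different probe signals in every group, from B2M near the top of the array to PSMB9 at its background. Levels of different probes cannot be ranked as amounts of RNA, so each gene is compared with itself across groups. Levels below are background-corrected, quantile-normalised log2 intensities, and fold changes are differences of group means from 1 limma fit of all 12 arrays, with p-values adjusted over all genes. In the order of the 5 group means of each tested member, 8 of 32 gaps between neighbouring groups were wider than that gene's pooled SD within groups. These were KD1 over OE Sirt1 in HLA-B, siRNA control over OE Sirt1 in HLA-E, OE control over OE Sirt1 in B2M, siRNA control over KD2 in TAP1, OE Sirt1 over OE control in TAP2, and the lower 3 gaps in TAPBP. Neighbours in HLA-C and HLA-F did not differ beyond their spread. Where arrays of groups are said below not to overlap, the share of all genes that did so was not counted.

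HLA-B, a classical heavy chain, had its lowest group means in the plasmid experiment and the widest range of the members in the siRNA experiment. It read 6.79, 6.38 and 5.89 in the OE control arrays and 6.58, 6.55 and 6.36 in the arrays labelled OE Sirt1. In the siRNA experiment it read 7.21 and 7.10 in the control, 6.62 and 7.43 in KD1, and 6.85 and 8.19 in KD2. KD2 replicate 3 was thus the highest array, the knockdown groups each overlapped the scrambled control, and every siRNA control array lay above every vector array. Its single probe was detected on 11 of 12 arrays, all but OE control replicate 3. No comparison of HLA-B passed the threshold. The difference between the controls was 0.80 (SE 0.37, adjusted p = 0.223), and KD2 minus siRNA control was 0.36 (SE 0.41, adjusted p = 0.769), which became -0.31 without KD2 replicate 3 and 1.04 without KD2 replicate 2.

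HLA-C, the other classical heavy chain measured, was at the edge of detection. The better of its 2 probes was detected on 2 arrays, siRNA control replicate 2 (6.00) and KD2 replicate 2 (5.99), and read 5.14 to 5.67 on the other 10. The second probe read 4.34 to 4.52 and was detected on no array. HLA-C differences between groups therefore carry little information, and the 6 fitted values, from -0.31 to 0.19, had adjusted p-values of 0.692 or more.

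HLA-E, the nonclassical heavy chain that presents leader peptides of other class I chains to NKG2A and NKG2C receptors, was detected on all 12 arrays. It read 9.03, 9.00 and 8.90 in OE control, 8.72, 9.17 and 9.07 in OE Sirt1, 9.42 and 9.16 in the siRNA control, 8.91 and 8.92 in KD1, and 9.20 and 9.56 in KD2. Both KD1 arrays lay below both arrays of the scrambled control and of KD2. The log2 fold change of KD1 was -0.38 (SE 0.17, 95% interval -0.76 to 0.00, adjusted p = 0.546), and KD1 minus KD2 was -0.47 (SE 0.17, adjusted p = 0.314), so neither passed over all genes. KD2 lay at 0.09 from the scrambled control (SE 0.17, adjusted p = 0.881), and OE Sirt1 at 0.01 from vector (SE 0.14, adjusted p = 1.00).

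HLA-F, a nonclassical chain that reaches the surface also without peptide, was detected on all 12 arrays by its brighter probe. That probe read 8.41, 8.89 and 8.52 in OE control, 8.67, 8.81 and 8.72 in OE Sirt1, 8.84 and 9.18 in the siRNA control, 8.63 and 9.37 in KD1, and 8.59 and 9.25 in KD2. The arrays of each knockdown fell on both sides of the scrambled control, and each of the 6 comparisons had an adjusted p of 0.360 or more. A second HLA-F probe, detected on 7 arrays, read 4.84 to 6.19, and its correlation with the first over the 12 arrays was 0.21. HLA genes are close copies of each other, and which of their transcripts or alleles each probe reads was not tested.

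B2M, the invariant light chain that pairs with the HLA heavy chains described here, had the narrowest span of group means among the 8 main probes. Its main probe read 11.96, 12.14 and 12.08 in OE control, 12.02, 11.83 and 11.90 in OE Sirt1, 12.20 and 12.09 in the siRNA control, 12.06 and 12.28 in KD1, and 12.07 and 12.19 in KD2. That span was 0.25 log2 units, against a pooled SD within groups of 0.10. The 6 fold changes ran from -0.14 to 0.09, and the knockdown mean minus scrambled control was 0.00 (SE 0.11, 95% interval -0.24 to 0.25, adjusted p = 0.997). The second B2M probe was as bright (11.64 to 12.37) and ordered the groups otherwise: KD2, at 11.64 and 11.87, lay below both scrambled control arrays, at 12.14 and 11.93, with a fold change of -0.28 (SE 0.16, adjusted p = 0.547 over all probes). The correlation of the B2M probes over the 12 arrays was -0.26, so differences of this size in B2M depended on the probe.

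TAP1, the first subunit of the peptide transporter, was highest in the scrambled control and detected on all 12 arrays. It read 7.54, 7.63 and 7.72 in OE control, 7.63, 7.79 and 7.61 in OE Sirt1, 8.17 and 7.95 in the siRNA control, 7.30 and 7.66 in KD1, and 7.51 and 8.12 in KD2. Both KD1 arrays lay below both scrambled control arrays, while KD2 overlapped them. KD1 minus siRNA control was -0.58 (SE 0.20, 95% interval -1.02 to -0.14, unadjusted p = 0.0140, adjusted p = 0.374), and it was -0.39 without KD1 replicate 1, the array that stood apart. KD2 minus siRNA control was -0.24 (SE 0.20, adjusted p = 0.655). The mean of both siRNAs gave -0.41 (SE 0.17, 95% interval -0.79 to -0.03, adjusted p = 0.427), and -0.56 to -0.26 with an array left out. The direct difference of KD1 and KD2 was -0.34 (SE 0.20, adjusted p = 0.535), from -0.64 without KD2 replicate 2 to -0.03 without KD2 replicate 3. The scrambled control lay 0.43 above vector (SE 0.18, adjusted p = 0.188), with no overlap of the arrays.

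TAP2, the other transporter subunit, gave the only member call of the 6 comparisons. Its brighter probe read 5.41, 5.54 and 5.40 in OE control, 5.73, 5.96 and 6.10 in OE Sirt1, 6.37 and 6.06 in the siRNA control, 6.27 and 5.80 in KD1, and 5.51 and 5.31 in KD2. It was detected on all OE Sirt1, siRNA control and KD1 arrays and on no OE control or KD2 array, so those groups have only an upper bound. The scrambled control lay 0.76 above vector (SE 0.17, adjusted p = 0.0333). Undetected arrays were placed at the lowest level that any detected probe reached on them, unless the probe itself read higher. On that basis the mean of the scrambled control arrays was at least 1.30-fold above that of the vector arrays. Such a bound concerns the group means of these arrays and carries no sampling error. The call was lost when any 1 of the 5 control arrays was left out (0.61 to 0.92, adjusted p from 0.0638 to 0.212) and on the authors' deposited normalised values (0.24, adjusted p = 0.0880).

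The same TAP2 probe had the lowest p of any member in KD2, where it was at least 1.49-fold lower than in the scrambled control (measured difference -0.80, SE 0.18, adjusted p = 0.0921). In the arrays labelled OE Sirt1 the probe's mean was at least 1.06-fold above that of vector, likewise without passing (measured difference 0.48, SE 0.15, unadjusted p = 0.00916, adjusted p = 1.00). All 3 OE Sirt1 arrays lay above all 3 vector arrays, and both KD2 arrays below both scrambled control arrays. The vector and KD2 readings are undetected levels, and the share of all genes with no overlap was not counted. KD1 overlapped its control (-0.18, SE 0.18, adjusted p = 0.841), and KD1 was at least 1.31-fold higher than KD2 (measured difference 0.62, SE 0.18, adjusted p = 0.208). The second TAP2 probe was detected on 3 arrays (OE Sirt1 replicate 2 at 5.95, siRNA control replicate 1 at 5.80 and KD1 replicate 2 at 5.66) and on none of OE control or KD2. With so few detections it gives no order of the groups. The correlation of both TAP2 probes over the 12 arrays was 0.45.

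TAPBP, the chaperone that bridges the heavy chain to the transporter, was measured by 1 of its 3 probes on all 12 arrays, and the others were detected on none. It read 8.67, 8.72 and 8.56 in OE control, 8.45, 8.44 and 8.66 in OE Sirt1, 8.99 and 8.96 in the siRNA control, 9.10 and 8.88 in KD1, and 8.82 and 8.89 in KD2. All 6 siRNA arrays lay above all 6 plasmid arrays, and the share of all genes that separated the experiments this way was not counted. Both KD2 arrays lay just below the scrambled control, by a mean of 0.11 (SE 0.13, adjusted p = 0.767), and KD1 overlapped it (0.02, SE 0.13, adjusted p = 0.975). The controls differed by 0.32 (SE 0.12, 95% interval 0.07 to 0.58, adjusted p = 0.132).

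PSMB9, the immunoproteasome subunit that replaces the constitutive PSMB6, was at background in nearly every array. The better of its 2 probes was detected on siRNA control replicate 1 alone, at a raw intensity of 175.0 where the array's median was 140.0. Its log2 level was 5.81 there, 5.09 in the other scrambled control array, 4.54 and 4.85 in KD1, 4.88 and 5.03 in KD2, and 4.55 to 5.37 in the 6 plasmid arrays. The second probe was detected on no array. PSMB9 was not tested in the main fit and has no fold change there, and its own level in most arrays is bounded only by the array's background.

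**Figure D1:**
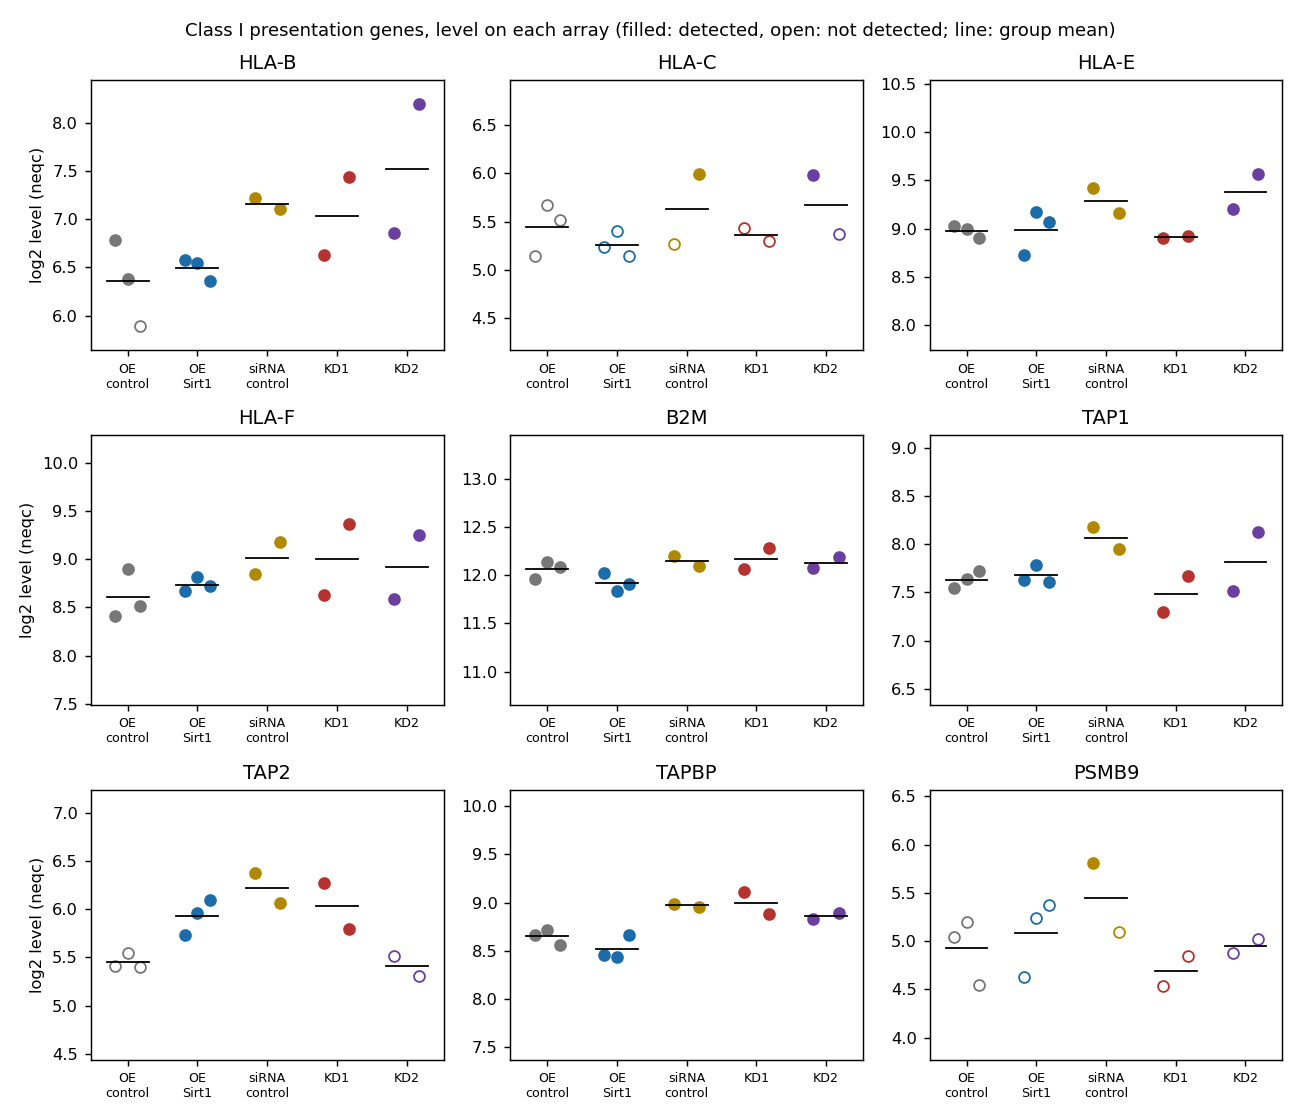
Normalised log2 level of each member's main probe on every array (y axis, log2 units, same span in each panel) in the 5 groups (x axis); filled points are detected, open points are not, and lines are group means. TAPBP of all 6 siRNA arrays lies above the plasmid arrays, and TAP2 is undetected in OE control and KD2. How many of all genes separate the arrays this way was not counted.

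The arrays labelled OE Sirt1 were compared with vector to ask what a plasmid for SIRT1 does to these genes. None of the 8 members passed the threshold, and 0% of the 11458 genes did by limma (0 genes, 404 at an unadjusted p under 0.05). The members' median fold change was 0.03 log2 units (0.04 with TAP2 at its bound and HLA-C, undetected in both groups, left out), beside 0.01 over all genes, with 5 members above 0 and 3 below. TAP2 was the 1 member with an unadjusted p under 0.05. The 95% intervals of HLA-E, B2M, TAP1 and TAPBP lay between -0.37 and 0.40. HLA-B had the widest, -0.59 to 0.88, so its smaller differences would not have been detected.

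In the first siRNA group, KD1, no member passed the threshold, beside 0.175% of all genes (20 genes, 15 of them lower, and 32 of 33 lower with arrays scaled to a common median). Of the 8 members, 6 were below 0, with a median of -0.16 (-0.09 with HLA-C at its bound, -0.01 over all genes). TAP1 alone had an unadjusted p under 0.05, and HLA-E and TAP1 were the members whose arrays did not overlap the scrambled control. In the second, KD2, 0 members were called beside 0.436% of all genes (50 genes, 38 lower, and 80 of 82 with median scaling), with 5 members below 0 and a median of -0.05 (-0.03 over all genes). There TAP2 and TAPBP did not overlap the control, and TAP2 alone had an unadjusted p under 0.05. TAP2 at its bound left that median at -0.05. The mean of both siRNAs gave 0 member calls beside 0.201% of all genes (23 genes, 17 lower, and 66 of 66 with median scaling), and its median over the members was -0.08. TAP1 and TAP2 were the members with an unadjusted p under 0.05 in that mean, 0.0359 and 0.0107. With 2 arrays a group, the median SE of a fold change was 0.18, and the KD1 and KD2 comparisons share the same 2 control arrays. Arrays of groups this small can fail to overlap with no difference, and the share of all genes that did so was not counted.

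**Figure D2:**
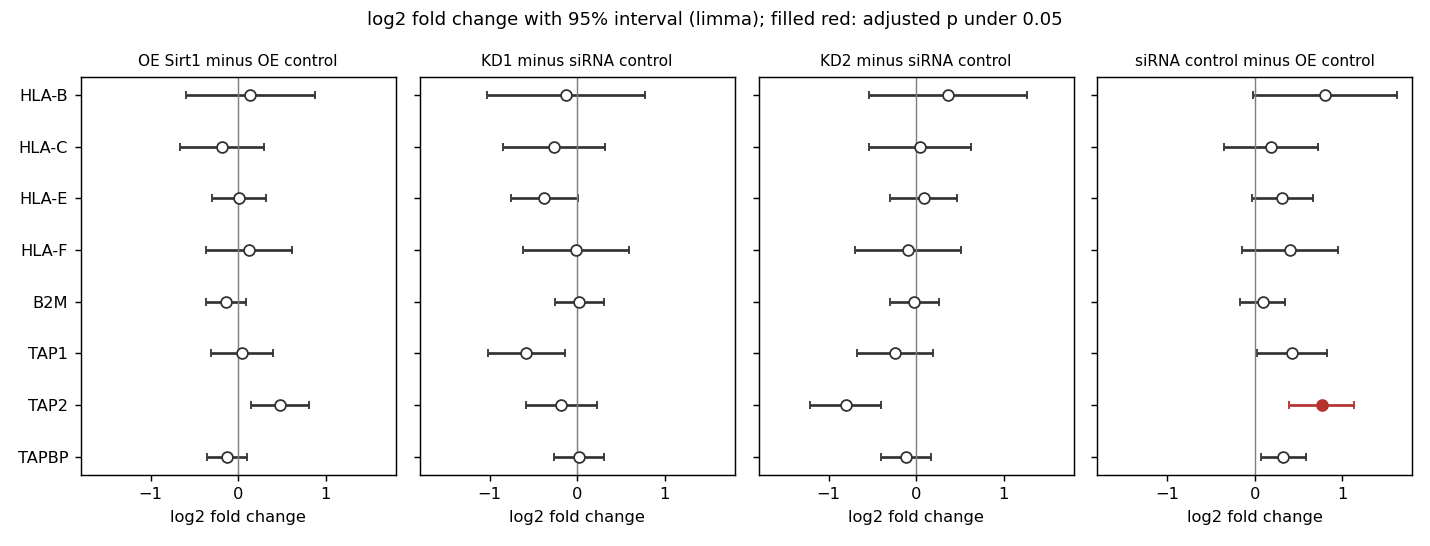
Log2 fold change of the 8 tested members (x axis) with its 95% interval from limma. Panels are OE Sirt1 minus OE control, KD1 and KD2 each minus siRNA control, and siRNA control minus OE control. Filled red points have an adjusted p under 0.05. TAP2 in siRNA control minus OE control, at 0.76, is the single filled point, and in KD2 it is the member farthest from 0.

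The siRNAs were also compared with each other, which asks whether 2 sequences against the same gene gave the same class I levels. None of the 8 members differed past the threshold, beside 0.62% of all genes (71 genes, 52 higher in KD1, and 1 of 1 with median scaling). The members' differences ran from -0.49 for HLA-B to 0.62 for TAP2, and 4 of the 8 lay above 0. HLA-E (-0.47) and TAP2 (0.62) each had no overlap between KD1 and KD2, in opposite directions, and were the members with an unadjusted p under 0.05 (0.0211 and 0.00646). The share of all genes without overlap was not counted here either.

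The widest shift of the class I genes was between the control groups. By the main probes, the mean of the scrambled siRNA arrays lay above that of the vector arrays in all 8 members, by a median of 0.36 log2 units (0.37 over 7 members with TAP2 at its bound, -0.01 over all genes), and 5 members (HLA-B, HLA-E, TAP1, TAP2 and TAPBP) had no overlap. The second B2M probe, as bright as the first, went the other way, at -0.08 (SE 0.15, adjusted p = 0.819 over all probes) against 0.09 for the main one. Arrays of such small groups can also fail to overlap here with no difference. How many of all genes had no overlap between the controls was not counted, so the 5 of 8 members cannot be set against that share. The test called 1 of the 8, TAP2, beside 5.04% of all genes (578 genes, 433 higher), and with 8 genes 1 call cannot be set apart from that share. With each array scaled to a common median in place of quantiles, the median of all genes shifted by 0.35, 1277 of 1278 calls were higher (672 of 1055 on the authors' deposited normalised values), and 4 members were called: HLA-B (1.21, adjusted p = 0.00356), HLA-F (0.80, adjusted p = 0.0463), TAP1 (0.84, adjusted p = 0.0249) and TAP2 (1.02, adjusted p = 0.00814). Relative to that shift the members lay 0.02 (HLA-C) to 0.86 (HLA-B) higher. The nucleic acid and its transfection differ between these controls. The lysis time may differ too, being 72 h for the siRNA arrays and not stated for the plasmid arrays. Effects of these cannot be told apart.

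Other measures were taken in the same contrast. Of 20 tested hypoxia response genes, 14 were called higher in the scrambled control, ANKRD37 (4.88, SE 0.56, adjusted p = 0.00601) and LOX (4.66, SE 0.50, adjusted p = 0.00436) by the most. The summed level of the fibroblast markers was 11.10 to 11.16 (log2) in vector and 11.53 to 11.66 in the scrambled control, with DCN, FAP and THY1 detected in neither; 2 of 6 tested markers were called higher (COL1A2 and PDGFRB) and 3 lay below 0, with a median of 0.10. That of the leukocyte markers was 11.53 to 11.57 and 11.61 to 11.78, with 4 of 9 detected on every array of both groups. PTPRC, CD3E, MS4A1 and CD79A were detected in neither. Of the 5 tested leukocyte markers 1 was called higher (CD68, 1.06) and 3 lay below 0, with a median of 0.00. That of the epithelial markers was 15.27 to 15.37 and 15.29 to 15.34. The part of these in the class I shift was not tested. In bulk RNA, fewer cells making a transcript and less of it per cell cannot be told apart.

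Of 16 related class I molecules, 8 were tested, and 1 was called in the 6 comparisons, between the controls. HLA-G, a nonclassical heavy chain best known from the placenta, rose by 1.19 from vector to the scrambled control (SE 0.21, adjusted p = 0.0191), and the 8 genes had a median of 0.60. As for the members, 1 call among 8 genes cannot be set apart from the 5.04% of all genes called there. Their 5 other comparisons called 0 of 8, with medians from -0.23 to -0.03. In those comparisons HLA-G had fold changes of -0.45 in KD1 (adjusted p = 0.602) and 0.06 in KD2 (adjusted p = 0.949).

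Among 11 tested genes for peptide loading, folding and trimming, CANX (calnexin, the lectin chaperone that holds new heavy chains before B2M joins) fell in KD1 by 0.94 (SE 0.13, adjusted p = 0.0331). It was also lower in KD1 than in KD2 (-0.75, SE 0.13, adjusted p = 0.0309) and lay at -0.19 in KD2 against the control (adjusted p = 0.570). CANX rose from vector to scrambled control by 0.49 (SE 0.12, adjusted p = 0.0415), as did the aminopeptidase NPEPPS by 0.67 (SE 0.16, adjusted p = 0.0429). No other gene of the list was called, and its median was within 0.07 of 0 in every comparison. Over all genes, 0.175% were called in KD1, 0.62% in KD1 minus KD2 and 5.04% between the controls. With the siRNA arrays fitted alone, 0 genes were called in KD1 and 0 in KD1 minus KD2, so the CANX calls there depend on the setting.

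The proteasome list covered the other immunoproteasome subunits PSMB8 and PSMB10, the constitutive catalytic subunits PSMB5, PSMB6 and PSMB7, the PA28 activators, and POMP. None of its 9 tested genes was called in any of the 6 comparisons, and the medians ran from -0.14 to 0.02. In the mean of both siRNAs the activator subunits PSME2 and PSME1 had the smallest p-values, with differences of -0.13 (SE 0.11, adjusted p = 0.728) and 0.13 (SE 0.11, adjusted p = 0.740). Class II presentation, the route used by professional antigen-presenting cells, was mostly undetected: 4 of 12 genes with a probe were tested and 0 were called. In the mean of both siRNAs HLA-DRA differed by 0.37 (SE 0.25, adjusted p = 0.649) and the invariant chain CD74 by -0.21 (SE 0.14, adjusted p = 0.655).

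Of 21 factors that regulate class I transcription, 16 were tested. IRF9, the DNA-binding subunit of the interferon-activated ISGF3 complex, fell in KD1 by 0.77 (SE 0.12, adjusted p = 0.0472) and in the mean of both siRNAs by 0.69 (SE 0.10, adjusted p = 0.0284), and lay at -0.61 in KD2 (SE 0.12, adjusted p = 0.0667). It rose from vector to scrambled control by 0.61 (SE 0.11, adjusted p = 0.0191), as did the NF-kB subunit RELA by 0.49 (SE 0.12, adjusted p = 0.0432). NFKB1, which encodes the p50 subunit, was higher in KD1 than in KD2 by 0.76 (SE 0.12, adjusted p = 0.0248). Over all genes, 0.175% were called in KD1, 0.201% in the mean of both siRNAs, 0.62% in KD1 minus KD2 and 5.04% between the controls. With the siRNA arrays fitted alone, 0 genes were called in KD1, 1 in the mean and 0 in KD1 minus KD2. NLRC5, the class I transactivator, was detected on no array and was not tested.

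Of 37 genes of the type I interferon response, 27 were tested, and 24 of these lay below 0 in each knockdown. In KD1, 5 genes were called, all lower: IFI27 (-1.66, SE 0.18, adjusted p = 0.0140), IFIT1 (-1.61, SE 0.17, adjusted p = 0.0140), IFITM1 (-1.42, SE 0.20, adjusted p = 0.0331), ISG15 (-1.25, SE 0.20, adjusted p = 0.0472) and IFIT2 (-1.07, SE 0.12, adjusted p = 0.0140). In KD2, 8 were called, all lower, led by IFI27 (-2.20), IFIT1 (-1.48), OAS3 (-1.43), IFITM1 (-1.35), MX1 (-1.33) and IFIT2 (-1.20), with adjusted p-values from 0.00193 to 0.0304. The list's medians were -0.62 in KD1 and -0.51 in KD2, beside -0.16 and -0.05 for the class I members and -0.01 and -0.03 for all genes. In the scrambled control against vector 7 of the 27 were called higher, with a list median of 0.22 beside 0.36 for the members. Over all genes, 0.175% were called in KD1, 0.436% in KD2 and 5.04% between the controls. With the siRNA arrays fitted alone, 0 of all genes were called in KD1 and 1 in KD2. The genes of the list are effector and sensor genes of antiviral defence. The calls in the knockdowns were known from earlier results of these arrays and are given here for scale, and the difference between the lists was not tested.

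**Figure D3:**
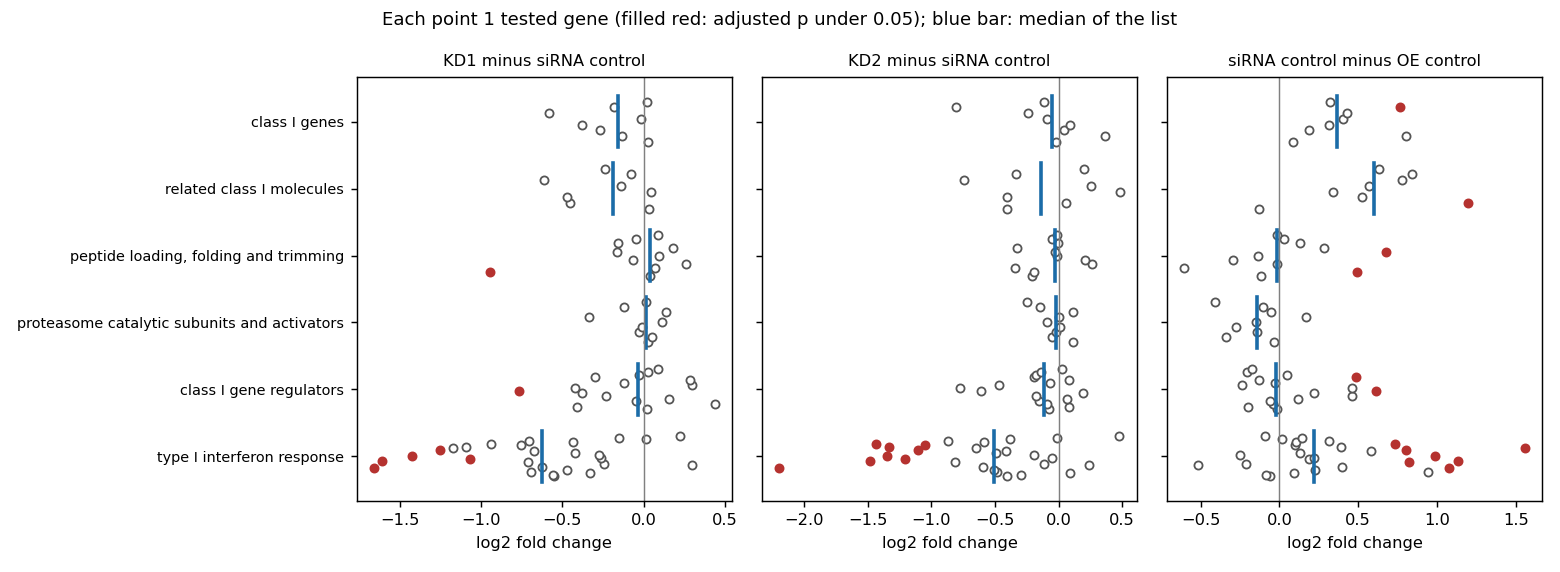
Log2 fold change (x axis) of every tested gene of the class I members and the related lists (rows), in panels by comparison; filled red points have an adjusted p under 0.05 and blue bars are list medians. The interferon list is centred at -0.62 in KD1 and -0.51 in KD2, while the members' medians are -0.16 and -0.05.

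A class I score was taken per array as the mean centred log2 level of the 5 members detected on all arrays (HLA-E, HLA-F, B2M, TAP1 and TAPBP). It was 0.23 and 0.17 in the scrambled control, -0.09 and 0.13 in KD1, and -0.05 and 0.31 in KD2. It ran from -0.17 to -0.02 in OE control and from -0.19 to -0.09 in OE Sirt1. In each knockdown 1 array lay within the range of the plasmid arrays, and the other lay between the plasmid arrays and the scrambled control in KD1 and above all other arrays in KD2. The interferon score did not split this way, at 0.46 and 0.39 in the scrambled control, -0.18 and -0.27 in KD1, and -0.17 and -0.25 in KD2. In KD1 and KD2 the array with the higher class I score also had the higher hypoxia score (0.96 against 0.00, and 1.15 against 0.53). The part of that in the class I values was not tested.

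**Figure D4:**
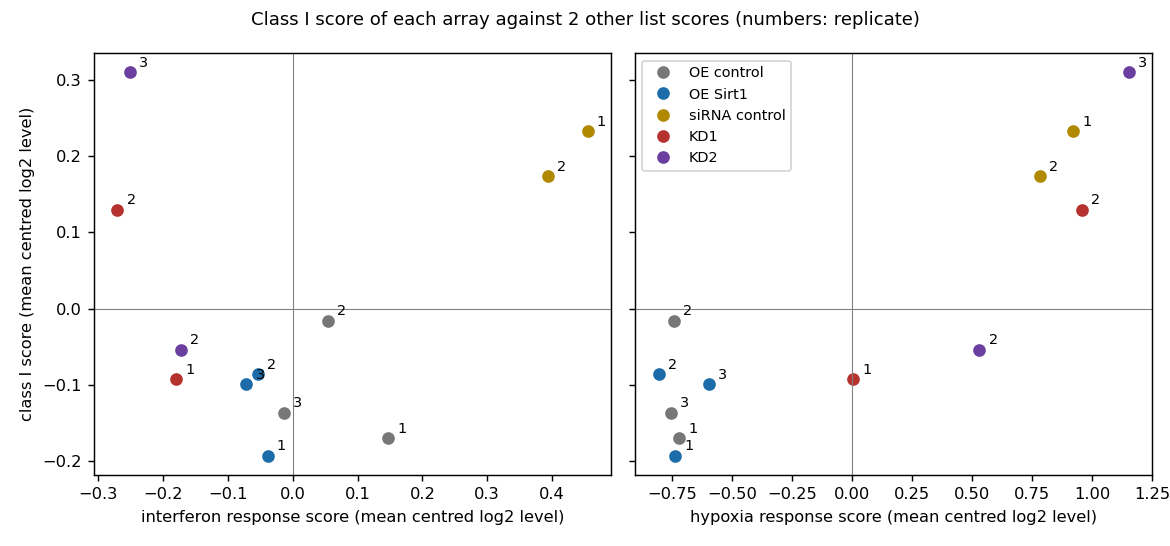
Class I score of each array (y axis, mean centred log2 level of 5 members) against the interferon score and the hypoxia score (x axes, same unit), coloured by group with the replicate number. KD2 replicate 3 has the highest class I score, 0.31, beside an interferon score of -0.25 and a hypoxia score of 1.15.

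Among themselves, the 5 members of the score had pairwise correlations over the 12 arrays from 0.12 (TAP1 and TAPBP) to 0.74 (HLA-E and TAP1). These points share libraries and span both experiments, so the values describe these arrays. Of 9031 other genes detected on all arrays, those most like the score by Pearson's r over the 12 arrays were SLC25A42 (0.960), GDF15 (0.959), ZDHHC9 (0.952), SNHG7 (0.952) and SLC25A4 (0.949). They are the highest of many values over few arrays and are named as a description.

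**Figure D5:**
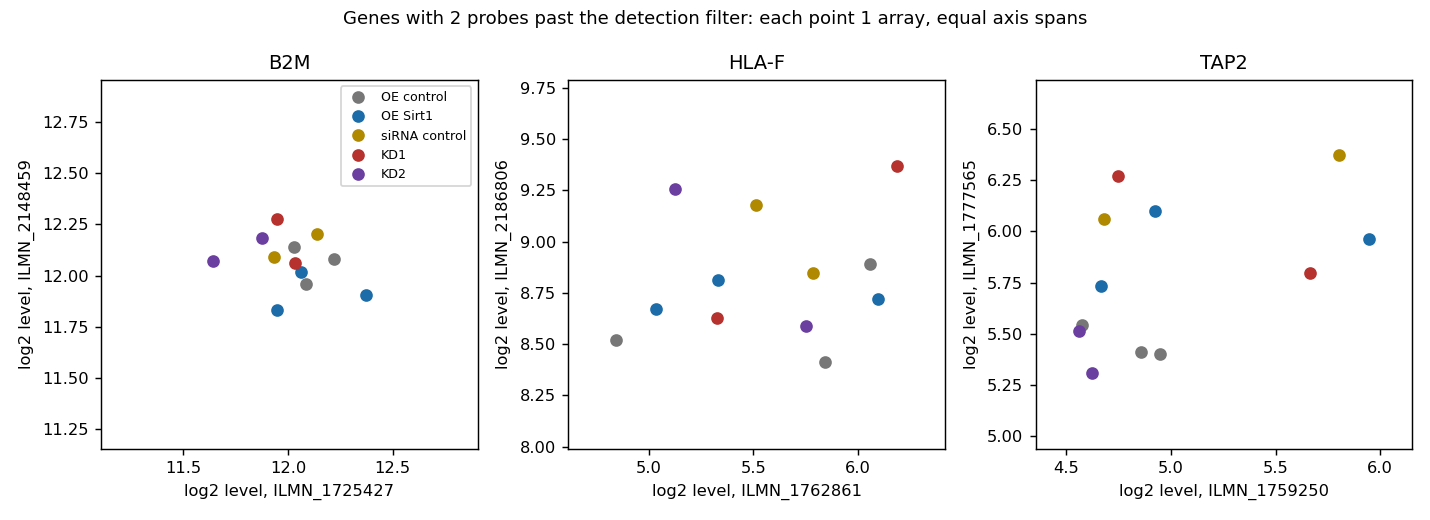
Log2 level of one probe against the other on each of the 12 arrays, for the 3 members with 2 probes past the detection filter (B2M, HLA-F and TAP2), coloured by group, with equal spans on both axes. The probes correlate at -0.26 for B2M, 0.21 for HLA-F and 0.45 for TAP2.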

How the data were processed

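RNA of Caco-2 cells was labelled with biotin and hybridised to Illumina bead arrays, read with GenomeStudio 2010.1 per the submitters' processing notes. The authors deposited raw probe intensity values with no normalization, each beside a detection p-value that is stored as 1 minus p per the values in the deposited table (the rank correlation with intensity was at least 0.985). They also deposited normalised log2 values, by a method not given in these sources, which serve here as an alternative. No depth exists for arrays: their number, 2 or 3 a group, limits the precision.

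The function neqc of limma 3.58.1 (R 4.3.3, offset 16) corrected the 47231 probes for background, inferred through detection p, then quantile-normalised them and took log2. Probes detected below 0.01 on at least 2 arrays were kept (19263), and the brightest with 1 platform symbol stood for each of 11458 genes. One limma fit (lmFit and eBayes, moderated two-sided test) gave each group a mean over all 12 arrays, with 7 residual degrees of freedom, and p-values were adjusted over all genes (Benjamini-Hochberg, threshold 0.05). Comparisons of single probes were adjusted over the 19263. The script was tested on simulated data.

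Every probe of every member is reported. List genes were named if called, at most 6 by fold change, and otherwise as the 2 with the smallest p in the mean of both siRNAs. The members and the lists were chosen with earlier results of these data known. Same-numbered arrays showed no sign of pairing in the plasmid experiment, where the correlations of their deviations were -0.16, -0.11 and 0.03. In the siRNA experiment they were -0.36 to 0.15. With 2 arrays a group the deviations mirror each other, so these few values cannot settle whether the siRNA arrays were paired. Alternatives were the deposited log2 values, median scaling, offset 50, no filter and a stricter one, eBayes with trend and robust, each experiment alone, a replicate block, all probes, and each array left out. Promoter windows and their coordinates are from RefSeq (GRCh38.p14); the array files name no build.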

Additional observations from a re-analysis of the deposited data

How the results depend on the processing

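Over the settings tried, 0 members were called in OE Sirt1, KD1, KD2, the mean of both siRNAs and KD1 minus KD2, with each array left out included. In siRNA control minus OE control the main count of 1 became 0 on the authors' normalised values, with no detection filter and with trend and robust, 4 with median scaling, and 0 with any 1 of the control arrays left out; the cause was not tested. TAP2 kept its sign there throughout, from 0.24 to 1.02. Directions of uncalled members turned in 56 cases (583 others kept their direction and call, or their count), none past the threshold. With median scaling the median of all genes moved by 0.27 (OE Sirt1), -0.23 (KD1), -0.34 (KD2), -0.29 (mean), 0.10 (KD1 minus KD2) and 0.35 (controls). Values that turned under it were B2M 0.089 and TAPBP 0.15 in OE Sirt1, B2M -0.15 and TAPBP -0.24 in KD1, HLA-B -0.029, HLA-C -0.13 and HLA-E -0.27 in KD2, and HLA-B -0.22 and B2M -0.20 in the mean.

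With the replicate block, HLA-B was -0.48 and HLA-E -0.029 in KD2, HLA-B -0.31 and B2M -0.039 in the mean, and HLA-B 0.35 and TAP1 0.0037 in KD1 minus KD2; 0 members were called with it. The arrays share only a number, and the block left 3 calls over all genes in KD1, 0 in KD2, 2 in the mean and 0 in OE Sirt1 and KD1 minus KD2. No paired analysis was possible because the numbers do not link the experiments for siRNA control minus OE control.

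Leaving out each array turned further directions. In OE Sirt1 the ranges were -0.091 to 0.36 (HLA-B), -0.079 to 0.14 (HLA-E) and -0.013 to 0.086 (TAP1). In KD1 they were -0.53 to 0.27 (HLA-B), -0.63 to 0.10 (HLA-C), -0.38 to 0.35 (HLA-F), -0.083 to 0.13 (B2M), -0.42 to 0.055 (TAP2) and -0.089 to 0.13 (TAPBP). In KD2 they were -0.31 to 1.04 (HLA-B), -0.32 to 0.41 (HLA-C), -0.091 to 0.27 (HLA-E), -0.42 to 0.24 (HLA-F), -0.077 to 0.040 (B2M) and -0.55 to 0.064 (TAP1). In the mean they were -0.22 to 0.45 (HLA-B), -0.48 to 0.26 (HLA-C), -0.24 to 0.13 (HLA-F), -0.053 to 0.059 (B2M) and -0.10 to 0.0096 (TAPBP). In KD1 minus KD2 they were -1.17 to 0.18 (HLA-B), -0.29 to 0.45 (HLA-F) and -0.064 to 0.15 (B2M), and between the controls -0.18 to 0.55 (HLA-C).

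Calls over all genes varied more. KD1 had 20, against 75 on the authors' values, 77 with trend and robust, 37 with offset 50, 33 with median scaling, 3 over all probes or with no filter, 0 on its experiment alone and 0 to 1 with an array left out. KD2 had 50, against 167, 171, 97 and 82 in the first 4 of these, 1 alone and 2 to 50. The mean had 23, against 91, 72, 32 and 66, 1 alone and 2 to 36. KD1 minus KD2 had 71, against 162, 162, 95 and 1, 0 alone and 0 to 67. The controls had 578, against 1055, 1011, 807 and 1278, 297 with no filter and 0 to 198. Signal near background limits HLA-C, TAP2 and PSMB9.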
